A study of Mus musculus with 18 samples.

Results

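This comparison sets regulatory T (Treg) cells that express Foxp3 with the A384T substitution against Treg cells of wild-type mice. It uses 7 of the 18 arrays of the series. The 3 A384T arrays are those titled A384T Treg, and the 4 control arrays are the wild-type Treg arrays of mice without a substitution, 2 sorted for GFP (WT GFP, arrays 1 and 2) and 2 sorted for hCD2 (WT hCD2, arrays 3 and 4). The A384T cells were CD4+ hCD2+ GFP- cells of heterozygous FoxP3 A384T:hCD2/WT:GFP mice, in which the second Foxp3 allele is wild type and tagged with GFP. The controls came from FoxP3 WT:hCD2/WT:GFP mice, as CD4+ GFP+ hCD2- cells or as CD4+ hCD2+ GFP- cells. All mice had the mixed B6;129 background and carried both reporter alleles. All cells were taken without treatment from spleen and lymph nodes, and the labels give no age and do not say whether mice were pooled. The remaining arrays (2 of conventional CD4 T cells, Tconv; 3 of wild-type GFP Treg cells of the A384T mice; 3 each of I363V and R397W Treg cells, sorted as hCD2+ from mice built in the same way) enter the fit and are quoted where a result needs them.

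Foxp3 is an X-linked forkhead transcription factor that gives Treg cells their suppressive programme. In a heterozygous female each Treg cell uses 1 of the 2 X chromosomes, so mutant and wild-type Treg cells can be sorted from the same animal by their reporters. The A384T substitution lies in the forkhead domain, which binds DNA, and it is known from patients with the immune disease IPEX. Treg cells range from resting cells of lymphoid organs to effector cells that leave for other tissues. Effector cells gain Klrg1, S100 proteins, galectins and homing receptors, and the AP-1 family factor Batf is known to act in this step.

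Values are log2 with the average of the 2 Tconv arrays set to 0, so 0 is the Tconv level and absolute levels are not known. Differences are log2, A384T minus the mean of the WT GFP and WT hCD2 groups, ± SE from a limma fit of all 18 arrays, and genes were called where the p adjusted by Benjamini-Hochberg over 18193 genes was under 0.05. Of these genes 56 were called higher in A384T cells (0.308%) and 52 lower (0.286%), 108 in all (0.594%). These shares are the background for the counts of called genes in the lists below. In all 108 the 3 A384T values lay outside the range of the 4 wild-type values. Over all genes, 6.15% had all A384T values above and 5.34% all A384T values below the wild-type ones. The median difference over all genes was -0.01. Array medians ran from -0.06 to 0.016, and precision is limited by how few arrays there are. Nothing in the labels states that the arrays are separate mice, so p-values measure the spread between these samples.

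The labels were first checked against markers. Foxp3 stood at 7.22, 7.53 and 7.26 on the A384T arrays and at 7.42, 7.11, 7.33 and 7.06 on the wild-type arrays. The groups overlapped (0.11 ± 0.16, adjusted p = 0.902). All 7 arrays carried far more Foxp3 RNA than Tconv cells, but an RNA probe does not read the substitution and does not check the genotype. T cell identity genes, such as the CD3 chains and Cd4, showed 0 called genes among 11 (median 0.03), with mean levels of 0.12 to 0.46 on the A384T arrays and 0.17 to 0.35 on the wild-type arrays.

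The 4 wild-type arrays were not fully independent of each other. WT GFP array 1 and WT hCD2 array 3 deviated together from their group means (correlation 0.77 across genes), and so did WT GFP array 2 and WT hCD2 array 4, whose correlation is the same by construction in groups of 2. Averaging each of these pairs, so that the control is 2 samples, left 23 genes higher and 22 lower. Tconv array 1 also moved with WT GFP array 1 (0.71) and WT hCD2 array 3 (0.72), and Tconv array 2 with the other pair. Correlations between the A384T arrays and the 4 wild-type arrays ran from -0.14 to 0.14. A random block for arrays that move together gave 28 and 34, which include 60 of the 108 genes. Among the 30 genes named as largest changes, 8 were not called with the pairs averaged, as is said beside each. The calls below otherwise rest on 3 and 4 arrays taken as independent. Between WT hCD2 and WT GFP cells limma called 0 genes higher and 0 lower (0%). At an unadjusted p under 0.05 there were 462 genes, 414 higher and 48 lower in WT hCD2 cells. This test did not use the pairs, so the deviations they share are part of its spread. It therefore cannot show that the reporters make no difference.

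**Figure D1:**
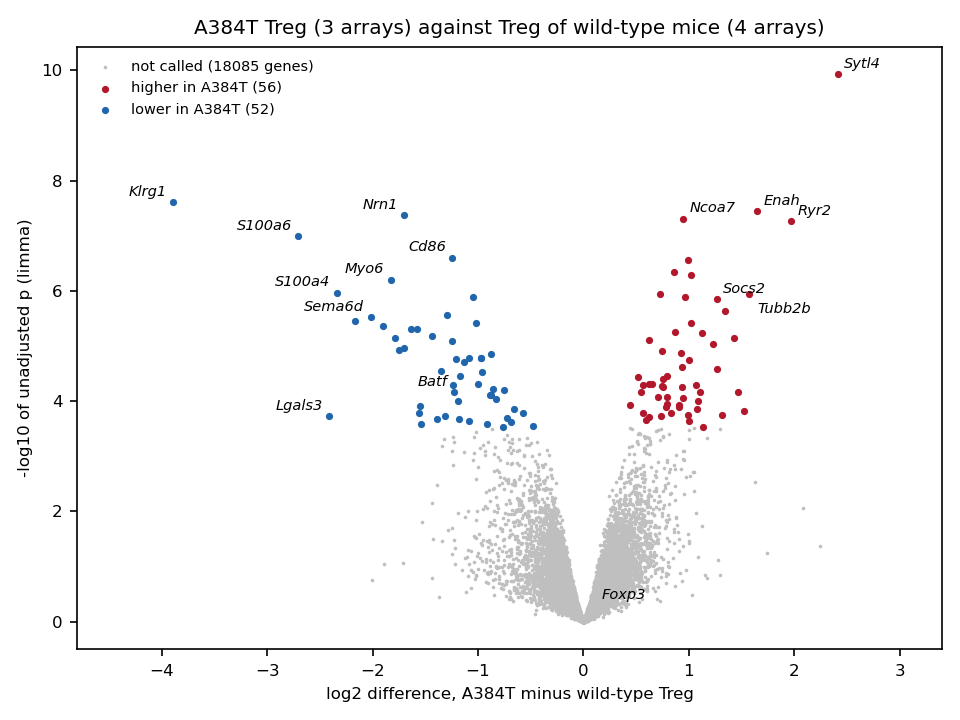
Difference of A384T minus wild-type Treg cells (log2, horizontal) against the unadjusted p of limma (-log10, vertical) for 18193 genes, each a point. The 56 genes called higher are red and the 52 called lower are blue. Sytl4 stands apart at the top right, Klrg1 has the largest decrease, and Foxp3 lies at the bottom near 0.

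The largest decrease was in Klrg1, an inhibitory lectin receptor that marks effector Treg cells. It stood at -0.05, 0.11 and 0.06 on the A384T arrays and at 2.89, 4.43, 3.49 and 4.92 on the wild-type arrays. The A384T cells were at the Tconv level and every wild-type array was well above it, a 14.8-fold difference (-3.89 ± 0.36, adjusted p = 0.000164). Whether 0 is background on this scale is not known, so the fold may be a lower limit. The other 12 measured killer lectin and NK receptor genes were not called, and the median of the 13 was -0.12. In bulk cells a smaller share of Klrg1+ cells and less Klrg1 RNA per cell cannot be told apart, and the same holds for every gene below.

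The calcium-binding proteins S100a6 and S100a4, which lie close together in the S100 cluster of chromosome 3, fell with it. S100a6 was at -0.81, -0.43 and -0.78 in A384T cells and at 1.41, 2.38, 1.76 and 2.58 in wild-type cells (-2.71 ± 0.28, 6.53-fold, adjusted p = 0.000261). S100a4 was at -0.84, -0.39 and -0.65 against 1.03, 2.07, 1.5 and 2.25 (-2.34 ± 0.29, adjusted p = 0.00137). For each gene the A384T arrays lay below the Tconv mean and the wild-type arrays above it. The 2 Tconv arrays of S100a4 were at -0.60 and 0.60, so A384T array 2 was within their range. Among galectins, lectins that bind sugars on cell surfaces, Lgals1 fell (-1.35 ± 0.22, adjusted p = 0.0103), from 0.80, 1.51, 1.23 and 1.60 in wild-type cells to -0.23, 0.18 and -0.15. Lgals3 also fell (-2.41 ± 0.48, adjusted p = 0.0359), but its wild-type values were wide, from -0.44 on WT GFP array 1 to 1.94 on WT hCD2 array 4. Lgals4 rose a little (0.54 ± 0.10, adjusted p = 0.0182). Of 22 measured S100 proteins, annexins and galectins, 4 fell and 1 rose, and the median was -0.31. Over all genes 0.286% were called lower and 0.308% higher. The 4 genes that fell are counted again in the effector and tissue list below.

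Those 3 galectin calls depended on single arrays. Lgals1 lost its call in fits without A384T array 1 or 3, WT GFP array 2 or WT hCD2 array 4 (adjusted p = 0.0536 to 0.0661). Lgals3 lost it without A384T array 1, 2 or 3, WT GFP array 2 or WT hCD2 array 4 (0.0919 to 0.168). Lgals4 lost it without A384T array 1 or 2, WT GFP array 2, or WT hCD2 array 3 or 4 (0.0559 to 0.119). With the wild-type pairs averaged none of the 3 was called (0.0535, 0.105 and 0.13). Klrg1, S100a6 and S100a4 were called in that fit and in all 7 fits that left out 1 array.

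Motor proteins and membrane proteins were also among the largest decreases. Myo1f, a class I myosin of blood cells, was at -1.09, -0.95 and -1.55 in A384T cells and at 0.37, 1.21, 0.73 and 1.55 in wild-type cells (-2.16 ± 0.30, adjusted p = 0.00292), and all 3 of its probe sets were called. Myo6, the myosin that walks towards the minus end of actin filaments, was at -0.72, -0.94 and -0.85 against 1.51, 0.84, 1.14 and 0.49 (-1.83 ± 0.22, adjusted p = 0.00095), with 2 of its 3 probe sets called and a mean over them of -1.15. The other 16 measured genes of the myosin list were not called (median of 18, -0.07). The myosin Myo3b is not on that list and was called higher (adjusted p = 0.00714). The myosin light chain gene Myl4, also not on it, was called lower (-0.86, adjusted p = 0.0171). Myo3b was called in 6 and Myl4 in 2 of the 7 fits that left out 1 array. With the wild-type pairs averaged neither was called (0.0516 and 0.108). The semaphorin Sema6d fell from 1.80, 1.55, 1.84 and 1.52 to -0.31, -0.21 and -0.51 (-2.02 ± 0.27, adjusted p = 0.00256). That holds for 1 of its 4 probe sets; the others were not called and reach 0.00, and the mean over all 4 fell by 0.55 (adjusted p = 0.0216). Myadm, a membrane protein of the myeloid-associated family, fell by 1.90 ± 0.27 (adjusted p = 0.00321), with 1 of its 2 probe sets called and a mean over them of -1.35. Nrn1, neuritin, a membrane-anchored protein first known from neurons and high in Treg cells, stood at 0.57, 0.68 and 0.94 against 2.29, 2.55, 2.56 and 2.34 (-1.70 ± 0.16, adjusted p = 0.000164).

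Other large decreases were in Gcnt1, which builds core 2 O-glycans needed for selectin ligands (-1.70 ± 0.26), and the ubiquitin ligase Rnf144a (-1.64 ± 0.23). Ttc39c (-1.79 ± 0.26) and Niban1, a stress-induced protein (-1.58 ± 0.22), fell as well, and Chdh, which oxidises choline in mitochondria, fell by 1.75 ± 0.27. The adjusted p of these 5 genes ran from 0.00336 for Rnf144a and Niban1 to 0.00573 for Chdh, and each was called in all 7 fits that left out 1 array. With probe sets averaged the decrease was -1.11 for Ttc39c, -1.16 for Gcnt1 and -0.69 for Rnf144a. Ccl5, a chemokine of memory T cells, fell (-1.56 ± 0.31, adjusted p = 0.0338) but lost its call without A384T array 1 or 3, WT GFP array 2, or WT hCD2 array 3 or 4 (adjusted p = 0.0569 to 0.18) or with the wild-type pairs averaged (0.176). Casp4 (-1.44 ± 0.21, adjusted p = 0.00393) and Casp1 (-1.24 ± 0.18, adjusted p = 0.00439), the caspases of inflammasomes, also fell.

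Cd86, a B7 ligand better known from antigen-presenting cells, fell from 1.76, 1.72, 1.55 and 1.54 in wild-type cells to 0.17, 0.49 and 0.53 in A384T cells (-1.25 ± 0.14, adjusted p = 0.000545). Its 2 probe sets were both called. It was the only called gene among 17 measured costimulatory and coinhibitory receptors and their B7 ligands (median -0.26). The receptors Cd28, Icos, Ctla4, Pdcd1 and Lag3 were not called.

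Batf was at -0.41, 0.18 and -0.04 on the A384T arrays and at 1.0, 1.25, 1.14 and 1.18 on the wild-type arrays. The A384T cells were at the Tconv level, and the 4 wild-type values were close to each other (mean 1.14 ± 0.11 SD, n = 4, against -0.09 ± 0.30 SD, n = 3). The difference was -1.23 ± 0.22, 2.35-fold, with an adjusted p of 0.0182. The call was lost without A384T array 1 (adjusted p = 0.119) or 3 (0.0802), WT GFP array 2 (0.0892), or WT hCD2 array 3 (0.0513) or 4 (0.0701), while the difference stayed between -1.37 and -1.07 in the 7 fits that left out 1 array. Against the WT hCD2 arrays alone it was -1.25 (adjusted p = 0.0807) and against the WT GFP arrays alone -1.22 (0.105), neither called, and it was not called with the wild-type pairs averaged (0.13). Of the other 15 AP-1 and BATF-IRF genes on the list, among them Jun, Junb, Fos, Batf3 and Irf4, none was called (median of 16, 0.03). The AP-1 partner gene Jdp2 is not on the list. It was called lower (-0.72), with the limits given below among neighbouring genes. Irf4, which binds DNA together with Batf, had a difference of 0.51 ± 0.26 (adjusted p = 0.616). Fosb had the widest uncertainty of the named factors, 1.74 ± 0.84 (adjusted p = 0.596).

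**Figure D2:**
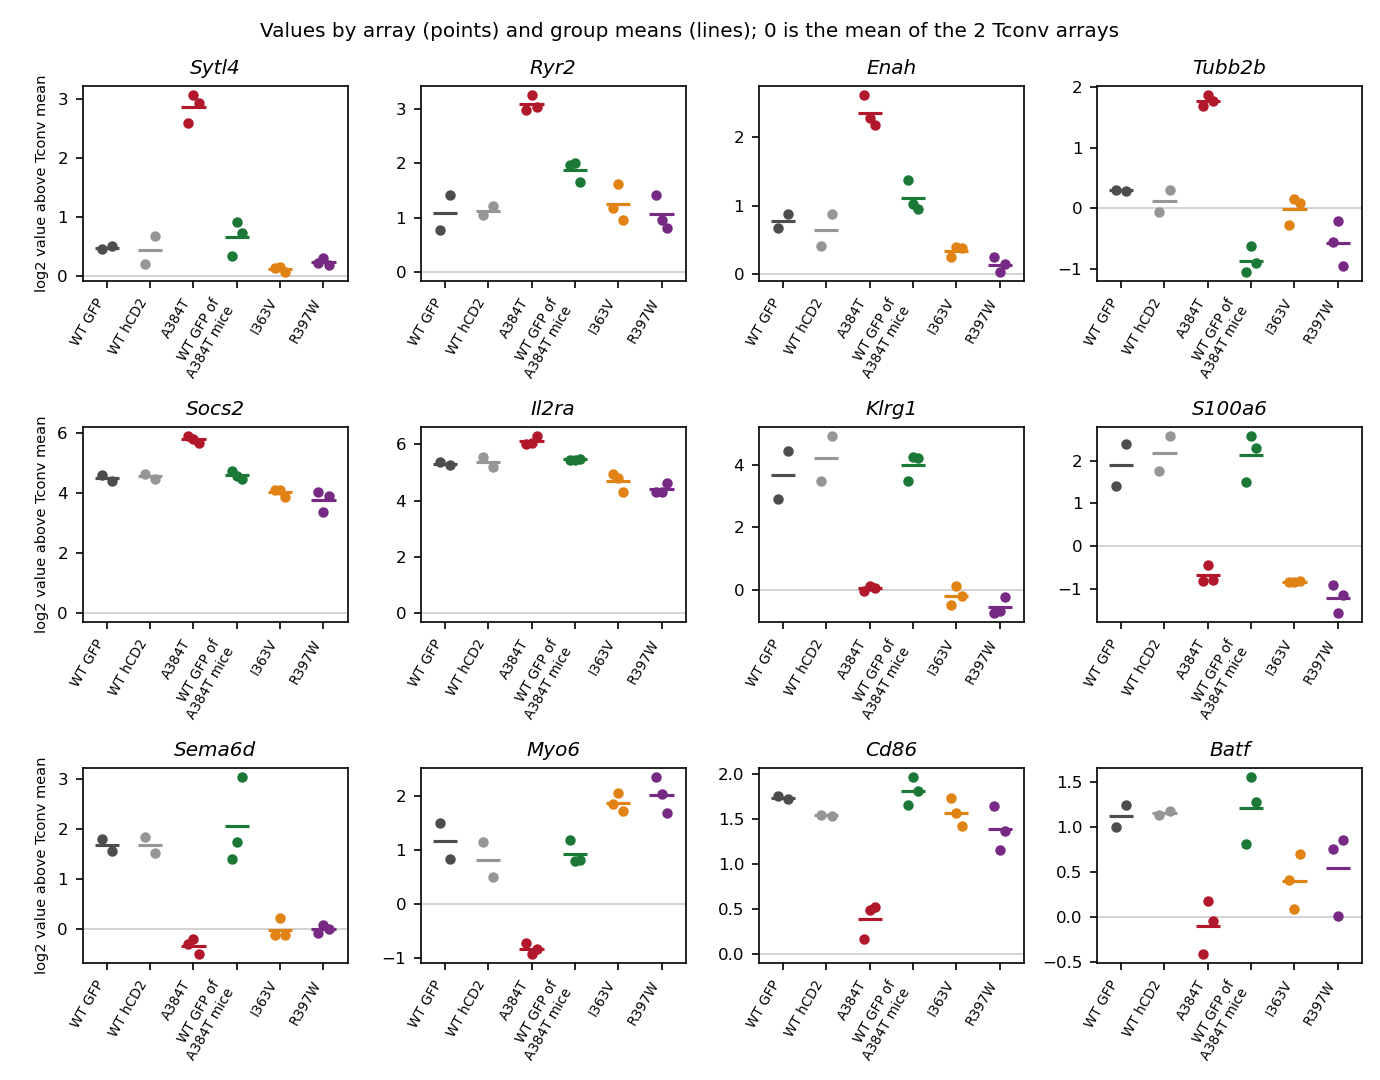
Values of 12 genes by array (points) with group means (lines), in log2 relative to the Tconv mean at 0, for the 2 wild-type groups of wild-type mice, A384T cells, wild-type GFP cells of A384T mice, I363V and R397W cells. Sytl4, Tubb2b, Socs2 and Il2ra are highest in A384T cells, Myo6 and Cd86 are lowest there, and Klrg1, S100a6 and Sema6d are low in all 3 mutants.

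The largest increase was in Sytl4 (granuphilin), a Rab27 effector that docks secretory granules at the plasma membrane. It was at 2.60, 3.07 and 2.94 on the A384T arrays and at 0.45, 0.50, 0.20 and 0.67 on the wild-type arrays with no overlap (2.41 ± 0.15, 5.33-fold, adjusted p = 2.15e-06). Ryr2, the calcium release channel best known from heart muscle, was at 2.97, 3.25 and 3.03 against 0.78, 1.41, 1.05 and 1.21 (1.97 ± 0.19, 3.93-fold, adjusted p = 0.000164). Enah (Mena), which lengthens actin filaments, was at 2.62, 2.28 and 2.18 against 0.68, 0.88, 0.41 and 0.88 (1.65 ± 0.15, 3.13-fold, adjusted p = 0.000164). Each of these values comes from the gene's most variable probe set, and other probe sets read less. The second probe set of Sytl4 differed by 0.14 and that of Ryr2 by 0.04, neither called, and 2 of 6 were called for Enah, where the lowest was -0.18. With probe sets averaged the increases were 1.28 for Sytl4 (adjusted p = 3.88e-07), 1.01 for Ryr2 (0.000214) and 0.43 for Enah (0.0121). In each of these genes wild-type Treg cells were above Tconv cells on every array and A384T cells were further above them.

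The beta-tubulins Tubb2b and Tubb2a rose together. Tubb2b was at 1.68, 1.87 and 1.77 in A384T cells and at 0.30, 0.29, -0.07 and 0.30 in wild-type cells (1.57 ± 0.20, adjusted p = 0.00137). Tubb2a was at 1.24, 1.47 and 1.48 against 0.15, 0.10, -0.21 and -0.17 (1.43 ± 0.21, adjusted p = 0.0041; 0.94 over its 2 probe sets). These neighbouring genes are close paralogs, so probes of one may also bind RNA of the other, and the 2 increases may not be separate. Of 20 measured tubulin, actin and vesicle genes 4 rose (Tubb2a, Tubb2b, Enah and Sytl4) and 0 fell, with a median of 0.07. In that list, Sytl4, Enah and the tubulins were included because earlier results of these data had shown them, so the count is not independent evidence.

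Calcium handling genes went both ways. Ryr2 rose together with Camk2n1, an inhibitor of the calcium-dependent kinase CaMKII (3.78, 3.18 and 3.41 against 2.19, 2.22, 2.01 and 2.50; 1.23 ± 0.18, adjusted p = 0.00475; 0.73 over its 2 probe sets). The related channel Ryr3 fell from 0.27, 0.48, 0.25 and 0.22 to -0.62, -0.87 and -0.51 (-0.98 ± 0.15, adjusted p = 0.00696), although its call was lost without A384T array 2 (adjusted p = 0.0566) or with the wild-type pairs averaged (0.0585), and over its 3 probe sets the difference was -0.51. The other 15 of 18 measured genes of the list, which include the IP3 receptors Itpr2 and Itpr3, the SERCA pumps and the Orai and Stim proteins, were not called (median 0.09).

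The IL-2 pathway keeps Treg cells alive and signals through STAT5. Socs2, a STAT5 target that dampens cytokine signalling, was at 5.92, 5.83 and 5.68 in A384T cells and at 4.62, 4.42, 4.66 and 4.48 in wild-type cells (1.27 ± 0.16, adjusted p = 0.00143). Il2ra, which encodes CD25, the IL-2 receptor subunit that gives high affinity, was at 6.0, 6.06 and 6.30 against 5.36, 5.25, 5.55 and 5.20 (0.78 ± 0.15, 1.72-fold, adjusted p = 0.028). Both genes were already far above Tconv in wild-type Treg cells and were higher again in A384T cells. The call of Il2ra was lost without A384T array 1, 2 or 3, WT GFP array 1 or 2, or WT hCD2 array 4 (adjusted p = 0.0626 to 0.161), with a difference of 0.69 to 0.87 in the 7 fits. It was also not called with the wild-type pairs averaged (0.148) or with its 2 probe sets averaged (0.58, 0.0699). Of 14 measured IL-2 and STAT5 genes these 2 rose and 0 fell (median 0.36). The list's array medians were 1.33, 1.34 and 1.56 in A384T cells and 1.51, 0.89, 1.37 and 0.59 in wild-type cells, so the groups overlapped.

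Further increases among the largest were Sp6, a zinc finger transcription factor (1.34 ± 0.18, adjusted p = 0.0022), Fah, the last enzyme of tyrosine breakdown (1.27 ± 0.21, adjusted p = 0.00999), and Igsf3 (1.13 ± 0.16, adjusted p = 0.00358). These 3 were called in all 7 fits that left out 1 array. Fah was not called with the wild-type pairs averaged (0.0806), and over all probe sets the increase of Sp6 was 0.47 and that of Igsf3 0.62. Gucy1b1, a subunit of the nitric oxide receptor (1.52 ± 0.30, adjusted p = 0.0314), was not called in 5 of those fits, those without A384T array 2 or 3, WT GFP array 1 or 2, or WT hCD2 array 4 (adjusted p = 0.0582 to 0.169). Stfa3, a cysteine protease inhibitor (1.47 ± 0.27, adjusted p = 0.0182), spread from 0.57 to 2.26 over the A384T arrays. It was not called without A384T array 2, WT GFP array 1 or 2, or WT hCD2 array 3 or 4 (0.0508 to 0.0919). The phospholipase Pla2g4f (1.31 ± 0.26, adjusted p = 0.0348) was called in none of the 7 fits (0.0632 to 0.178). Tanc2 (1.11 ± 0.20, adjusted p = 0.0182) was not called without A384T array 2 or 3, WT GFP array 2 or WT hCD2 array 4 (0.0895 to 0.116). With the wild-type pairs averaged none of Gucy1b1 (0.135), Stfa3 (0.13), Pla2g4f (0.207) and Tanc2 (0.107) was called. With probe sets averaged the increase was 1.04 for Gucy1b1 and 0.74 for Tanc2.

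Some genes that Treg cells keep below the Tconv level were less reduced in A384T cells. Pde3b, a cyclic nucleotide phosphodiesterase that Foxp3 is known to repress, was at -2.34, -2.51 and -2.27 in A384T cells and at -3.78, -3.49, -3.76 and -2.99 in wild-type cells (1.13 ± 0.24, adjusted p = 0.0496). Tgfbr3, a TGF-beta co-receptor, was at -1.57, -1.58 and -1.60 against -2.22, -2.35, -2.35 and -2.44 (0.75 ± 0.13, adjusted p = 0.0131). Each stayed far below Tconv on every array. Pde3b lost its call without A384T array 1, 2 or 3, WT GFP array 1 or 2, or WT hCD2 array 3 (adjusted p = 0.105 to 0.199), and Tgfbr3 without A384T array 1, 2 or 3, WT GFP array 2 or WT hCD2 array 4 (0.0598 to 0.0684). Neither was called with the wild-type pairs averaged (0.195 and 0.101), nor was Tgfbr3 with its 2 probe sets averaged (0.38, 0.0879). Of 13 measured core genes lower in Treg cells these 2 rose and 0 fell (median 0.10). Among all 56 genes called higher, wild-type Treg cells were above Tconv for 35. For 9 both groups were below Tconv, as for the neuropeptide receptor Vipr1 (1.02 ± 0.12; 0.48 over its 2 probe sets), Tdrp (0.99 ± 0.11) and Lypd6b (0.99 ± 0.20). For 12 the wild-type mean was below and the A384T mean above Tconv. Among the 52 genes called lower, A384T cells were still above Tconv for 20, fell from above to below it for 21, and started below it for 11. These positions use the wild-type arrays of the comparison and are descriptions. They go by the sign of each group mean against the Tconv mean, with no margin. Some lie close to that mean, such as Lgals1 (-0.07) and Batf (-0.09) in A384T cells and Tubb2a (-0.03) in wild-type cells.

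Of 24 measured core genes higher in Treg cells Il2ra and Socs2 rose, 0 fell and 22 were not called. The median was -0.12, the lowest difference was -0.83, and at an unadjusted p under 0.05 there were 8 lower and 2 higher genes. A change of 0.5 was recovered for 30.4% of genes in simulated data with independent arrays, so smaller decreases could be missed. Array medians of this list were 3.35, 3.65 and 3.72 in A384T cells and 3.77, 3.65, 3.86 and 3.61 in wild-type cells. Ctla4 (0.35 ± 0.20, adjusted p = 0.678), Ikzf2 (-0.51 ± 0.14, adjusted p = 0.149), Itgae (0.22 ± 0.19, adjusted p = 0.802) and Entpd1 (-0.29 ± 0.13, adjusted p = 0.557) did not pass.

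The effector and tissue Treg list held the most decreases. Of 25 measured genes 6 fell (Klrg1, S100a4, S100a6, Lgals1, Lgals3 and Gpr15), 0 rose and 19 were not called. Over all genes 0.286% were called lower. The median was -0.66 against -0.01 for all genes. Array medians of the list were 0.59, 0.60 and 0.84 in A384T cells and 1.11, 1.69, 1.53 and 1.65 in wild-type cells, without overlap. Of all single genes, 5.34% had every A384T value below the wild-type ones. Gpr15, a homing receptor for the large intestine, was at 1.29, 1.60 and 2.25 against 2.66, 3.38, 3.30 and 3.69 (-1.55 ± 0.30, adjusted p = 0.0278). Its call was lost without A384T array 1 or 2, WT GFP array 2 or WT hCD2 array 4 (adjusted p = 0.124 to 0.173) or with the wild-type pairs averaged (0.145). Members that did not pass included the integrin Itgb1 (-1.32 ± 0.29, adjusted p = 0.0653), Fgl2 (-1.39 ± 0.39, adjusted p = 0.199), granzyme B (Gzmb, -0.88 ± 0.39, adjusted p = 0.531), Gata3 (0.02 ± 0.22, adjusted p = 0.987) and Il10 (0.54 ± 0.30, adjusted p = 0.658). This list was compiled with earlier results of these data known, so its counts and medians are not independent evidence.

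Among 19 chemokine and homing receptors Gpr15 and Gpr183 fell (median -0.15). Gpr183, an oxysterol receptor that positions lymphocytes in lymphoid organs, was at -2.26, -1.85 and -1.61 against -0.82, -0.56, -0.90 and -0.49 (-1.21 ± 0.19, adjusted p = 0.00696), so it was below Tconv on all 7 arrays. It was not called with the wild-type pairs averaged (adjusted p = 0.0516), nor against WT GFP cells of the A384T mice (-0.80, adjusted p = 0.156). None of 17 integrin chains was called (median -0.07), nor any of 14 TNF receptors (0.04). Of 12 secreted suppressor molecules Lgals1 fell (median -0.48). The naive T cell list had 0 called of 13 (median 0.23), with array medians of -0.19, 0.20 and -0.04 against -0.18, -0.56, -0.28 and -0.60. No gene was called among 10 Th1 (median -0.15), 9 Th2 (-0.06), 6 Th17 (-0.07) and 12 Tfh and follicular Treg genes (-0.15), nor among 19 TCR and NF-kB early response genes (0.04). Cholesterol genes (0 of 15 called, -0.03), Bcl2 family genes (0 of 11, -0.01), interferon response genes (0 of 17, -0.04) and heat shock genes (0 of 11, -0.32) had no call either. At an unadjusted p under 0.05, counts in these lists without a call were 3 higher and 0 lower for naive genes, 1 and 3 for Th1, 0 and 3 for integrins, 1 and 1 for TNF receptors, 0 and 2 each for Th2, Tfh and heat shock genes, 0 and 1 each for Th17, TCR and Bcl2 genes, and 0 for the interferon and cholesterol lists. Of 13 glycolysis genes the glucose transporter Slc2a3 rose (0.59 ± 0.12, adjusted p = 0.0399) and hexokinase Hk2 fell (-0.77 ± 0.16, adjusted p = 0.0496). Hk2 was called in none of the 7 fits that left out 1 array (0.0744 to 0.256), and Slc2a3 was not called without A384T array 1, 2 or 3, WT GFP array 2 or WT hCD2 array 4 (0.142 to 0.184). With the wild-type pairs averaged neither was called (0.263 and 0.13), and over its 4 probe sets Slc2a3 differed by 0.29 (0.409).

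Every one of the 24 measured cell cycle genes had a negative difference, from -1.53 to -0.06 (median -0.67), but none was called, and 5 were lower at an unadjusted p under 0.05. Mki67, a marker of dividing cells, had -1.53 ± 0.56 (adjusted p = 0.392). Array medians of the list were -0.25, 0.49 and -0.15 in A384T cells and 0.20, 1.05, 0.37 and 1.10 in wild-type cells. WT GFP array 2 and WT hCD2 array 4, which also deviate together, were the high ones, and A384T array 2 lay above the other wild-type arrays. The part of proliferation in the other results was not tested.

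**Figure D3:**
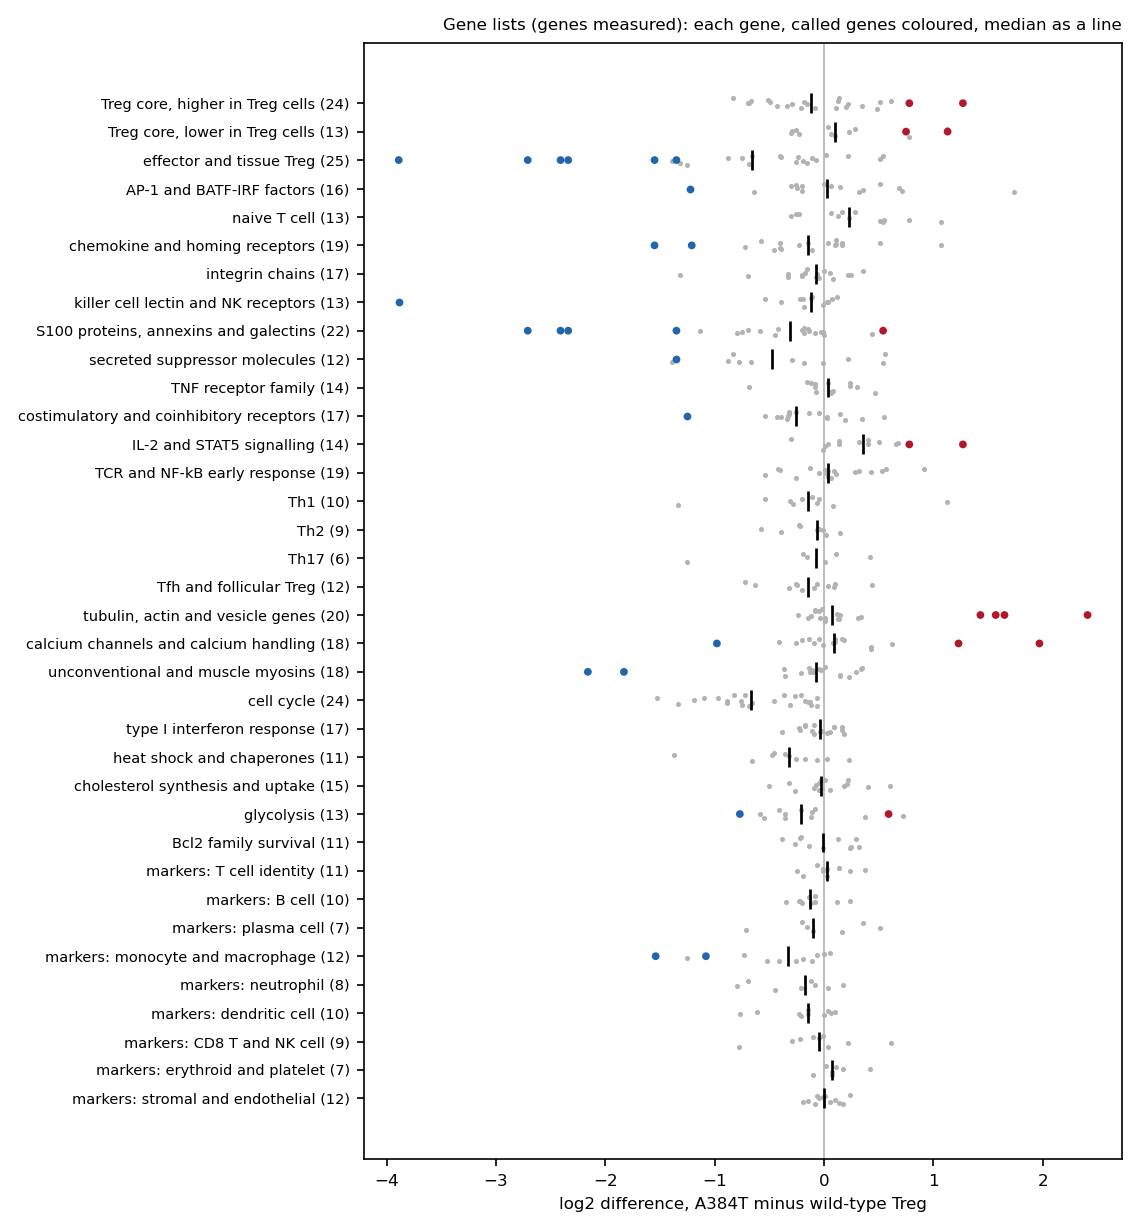
Log2 differences of A384T minus wild-type Treg cells for the genes of 36 lists, with the number of measured genes in brackets. Each point is a gene, called genes are red (higher) or blue (lower), and the black line is the median. Called decreases are most frequent in the effector and tissue list, while the Treg core list higher in Treg cells lies around 0 with 2 called increases.

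Marker genes of other cells were read in the same arrays. In the monocyte and macrophage list 2 of 12 genes fell, the lysozyme Lyz1 (-1.54 ± 0.32, adjusted p = 0.0449) and the Fc receptor Fcgr3 (-1.08 ± 0.22, adjusted p = 0.0405). The mean level of the list ran from -0.91 to -0.28 on the A384T arrays and from -0.23 to -0.01 on the wild-type arrays. These ranges do not overlap, but their ends at -0.28 and -0.23 are close. Of all single genes, 0.286% were called lower and 5.34% had every A384T value below the wild-type ones. Of the defining genes of the list Csf1r (-0.73 ± 0.36, adjusted p = 0.616), Cd14 (0.00 ± 0.08) and Adgre1 (-0.19 ± 0.18) were not called. The calls of Lyz1 and Fcgr3 were fragile: Fcgr3 was called in none of the 7 fits without 1 array (adjusted p = 0.0536 to 0.184), and Lyz1 only in the fit without A384T array 2 (0.0277), not without A384T array 1 or 3, WT GFP array 1 or 2, or WT hCD2 array 3 or 4 (0.0895 to 0.214). None of the 3 probe sets of Lyz1 was called when each probe set was tested by itself. With the wild-type pairs averaged neither Fcgr3 nor Lyz1 was called (0.195 and 0.251). Whether a few myeloid cells in the sorts bear on these genes was not tested. Nor was it tested for S100a4, S100a6, Lgals3, Myo1f, Cd86 and F13a1 (-1.17), called decreases outside this list that myeloid cells also express. Neutrophil markers (0 of 8 called) had mean levels of -0.74 to 1.13 on the A384T arrays and 0.17 to 0.55 on the wild-type arrays. No gene was called among markers of B cells (10 genes, median -0.13), plasma cells (7, -0.10), CD8 T and NK cells (9, -0.05), stromal and endothelial cells (12, 0.00), dendritic cells (10, -0.15), or platelets and erythroid cells (7, 0.07).

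Wild-type GFP Treg cells of the A384T mice give a control that the comparison did not use. Set against Treg cells of wild-type mice, limma called 0 genes higher and 0 lower in them (0%), with 877 at an unadjusted p under 0.05 and a smallest adjusted p of 0.925. Their Klrg1 mean was 3.98, their S100a6 mean 2.12, their Batf mean 1.22 and their Cd86 mean 1.81, all within or close to the wild-type ranges given above. On the higher side their Sytl4 mean was 0.66 and their Socs2 mean 4.61, also near the other wild-type arrays. Some genes did differ by more in these cells. Ryr2 was at 1.87, between the wild-type mean of 1.11 and the A384T mean of 3.09, and the difference between the wild-type cells of the 2 kinds of mice was 0.76 (adjusted p = 0.925). Tubb2b was at -0.86, below the wild-type mean of 0.20 (-1.07, adjusted p = 0.925). Gucy1b1 (mean 1.91 against 1.01) and Tanc2 (1.17 against 0.33) also lay nearer to the A384T means of 2.53 and 1.44.

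Set directly against these cells of the same mice, A384T cells had 31 genes called higher (0.17%) and 64 lower (0.352%). Arrays of equal number deviate together in these groups (correlations of 0.69, 0.65 and 0.58), and with the number as a block 330 were called higher (1.81%) and 622 lower (3.42%). This comparison shares the A384T arrays with the main one, so the values are given side by side only. Sytl4 was 2.21 higher (adjusted p = 1.79e-05), Ryr2 1.21 higher (0.0132) and Enah 1.24 higher (0.002). Klrg1 had a difference of -3.93 (0.000227), S100a6 of -2.79 (0.000406), Cd86 of -1.42 (0.000372) and Batf of -1.31 (0.0222). The differences of Gucy1b1 (0.62, adjusted p = 1; 0.0278 with the block) and Tanc2 (0.27, adjusted p = 1; 0.11 with the block) were smaller against these cells than against Treg cells of wild-type mice. Il2ra (0.65, adjusted p = 0.131) and Lgals1 (-1.07, adjusted p = 0.075) passed only with the block (0.00263 and 0.000406). Fcgr3 (-0.48, adjusted p = 1) and Lyz1 (-0.51, adjusted p = 1) passed with the block as well (0.0235 and 0.0183).

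**Figure D4:**
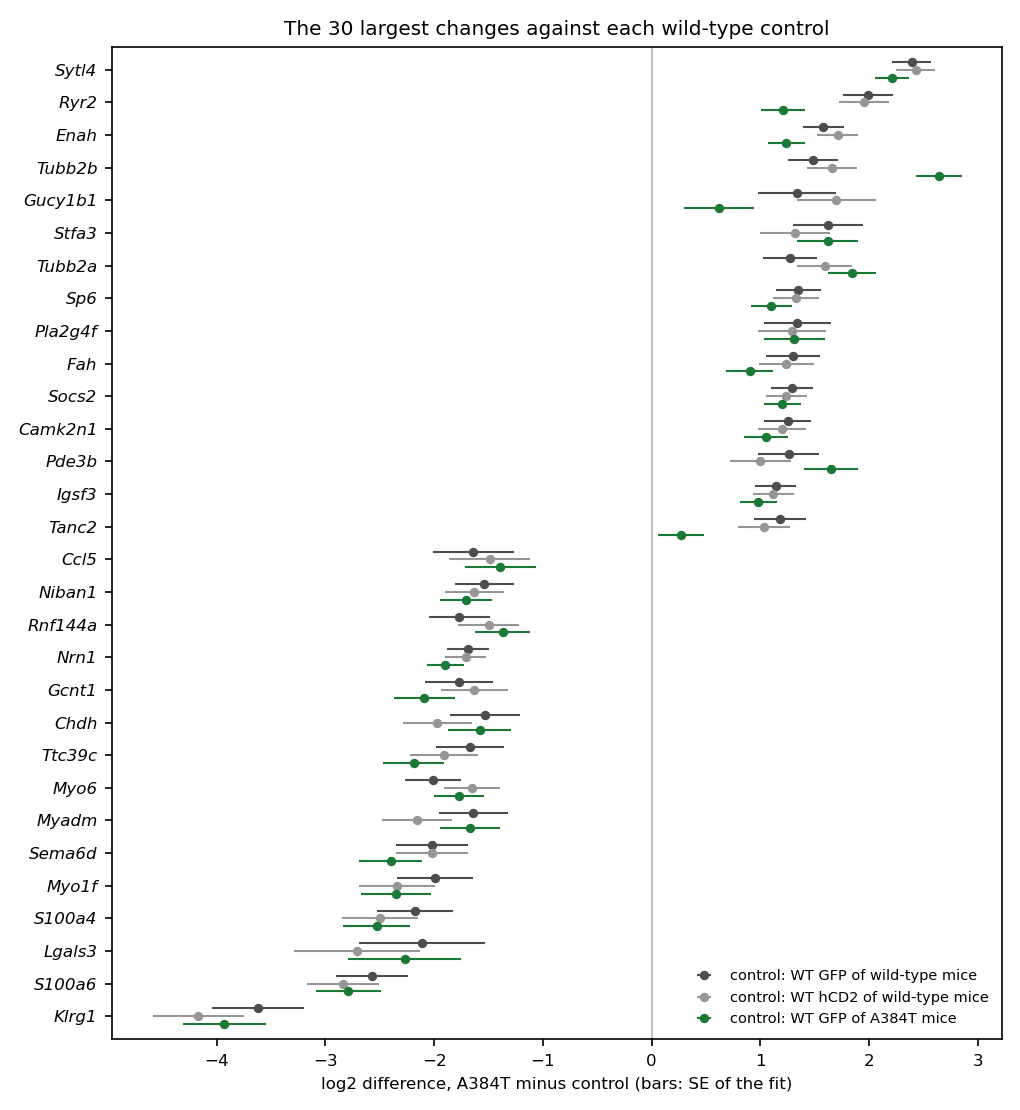
Log2 difference of A384T cells for the 15 largest called increases and 15 largest called decreases, each against 3 wild-type controls (points, with SE of the fit as bars). The points of the 2 controls from wild-type mice lie close together, and Ryr2, Gucy1b1 and Tanc2 are nearer to 0, and Tubb2b further from 0, against wild-type cells of the A384T mice.

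Direct tests against the other substitutions show which changes differ between mutants. I363V and R397W lie in the same forkhead domain. Over all genes, A384T cells had 161 higher (0.885%) and 46 lower (0.253%) than I363V cells, and 404 higher (2.22%) and 165 lower (0.907%) than R397W cells. Of the 56 genes called higher against wild type, 33 were also higher than in both other mutants. Of the 52 called lower, 9 were lower than in both, and 39 differed from neither. These tests use the same A384T arrays that chose the genes, which favours such calls.

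Sytl4 was 2.75 higher in A384T than in I363V cells (adjusted p = 8.9e-07) and 2.63 higher than in R397W cells (1.57e-06). The I363V and R397W means of 0.12 and 0.23 did not differ detectably from wild-type Treg cells (-0.34, adjusted p = 0.403, and -0.22, 0.57). For Socs2 the differences were 1.77 (6.68e-05) and 2.02 (1.53e-05), and for Il2ra 1.43 (0.00027) and 1.71 (3.76e-05). I363V and R397W means of these 2 genes were below the wild-type Treg means, while the A384T means were above them. The decrease of Socs2 in I363V cells was not called (-0.51, adjusted p = 0.172). Ddc, the aromatic amino acid decarboxylase, rose only a little against wild type (0.56 ± 0.10, adjusted p = 0.0155) and was 1.74 above I363V (9.89e-07). It was called in 3 of the 7 fits that left out 1 array, and neither with the wild-type pairs averaged (0.112) nor over its 2 probe sets (0.19, 0.432).

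Other increases were larger in the other mutants. Lypd6b was lower in A384T than in I363V (-1.41, adjusted p = 0.00312) and R397W cells (-1.75, 0.000311). Tdrp (-0.73, 0.00514 and -0.82, 0.00126), Vipr1 (-0.69, 0.0128 and -0.84, 0.00168) and Ggt5 (-1.13, 0.00552 and -1.64, 0.000169) behaved in the same way. These 4 genes are below Tconv in wild-type Treg cells, and A384T cells lay between wild type and the other mutants. Lypd6b and Ggt5 were called against wild type in 2 and in 1 of the 7 fits that left out 1 array, and neither was called with the wild-type pairs averaged (0.156 and 0.165). Over the 3 probe sets of Ggt5 the increase was 0.54. Tdrp and Vipr1 were called in all 7 fits and with the pairs averaged. Pde3b and Tgfbr3 were lower in A384T than in R397W cells (-1.17, adjusted p = 0.0221, and -0.70, 0.0119). Against I363V cells they did not pass (-0.99, adjusted p = 0.099, and -0.14, 0.86).

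The 9 decreases that were lower than in both other mutants include Myo6, Rnf144a, Cd86 and Gpr183. Myo6 was at a mean of 1.88 in I363V and 2.03 in R397W cells, above the wild-type mean of 1.0, whereas A384T cells were at -0.83 (differences of -2.72, adjusted p = 3.65e-05, and -2.86, 1.04e-05). Rnf144a had a difference of -2.32 from I363V (adjusted p = 0.000167) and of -2.37 from R397W cells (8.82e-05). These values are from 1 of its 3 probe sets, the only one called against wild type. Cd86 was at 1.57 and 1.39 in I363V and R397W cells, near wild type, and at 0.40 in A384T cells (-1.18, 0.000723 and -1.0, 0.00142). For Gpr183 the differences were -0.96 (adjusted p = 0.0343) from I363V and -1.43 (0.00121) from R397W cells. Klrg1, S100a6, S100a4, Sema6d and Myo1f did not differ detectably between A384T and I363V (adjusted p = 0.729 to 0.983) or R397W cells (0.156 to 0.62). Batf means were 0.40 in I363V and 0.55 in R397W cells, and the differences from A384T cells did not pass (-0.49, adjusted p = 0.597, and -0.64, 0.195). Gpr15 and Lyz1, lower in A384T than in wild-type cells, were higher than in R397W cells (1.34, adjusted p = 0.0338, and 2.72, 0.000495). Their differences from I363V cells did not pass (0.81, adjusted p = 0.423, and -0.98, 0.323).

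Several called genes are neighbours in the mouse genome. By the gene order of GRCm38.p6, 5 pairs of called genes lie next to each other with 0 protein-coding genes between them, and in all 5 both genes changed in the same direction. Jdp2, which encodes an AP-1 partner protein, lies beside Batf on chromosome 12 and fell as well (-0.72 ± 0.15, adjusted p = 0.0379), although it was called in 1 of the 7 fits that left out 1 array and neither with the wild-type pairs averaged (0.121) nor over its 2 probe sets (-0.38, 0.134). Nrn1 and the coagulation factor gene F13a1 (-1.17 ± 0.20, adjusted p = 0.0121; called in 3 of those 7 fits, and not with the pairs averaged, 0.0815) are adjacent on chromosome 13, where Tubb2a and Tubb2b also lie side by side. Casp1 and Casp4 are adjacent on chromosome 9. Il17rb, a receptor subunit for IL-25 (-1.29 ± 0.17, adjusted p = 0.00251), and Chdh form the fifth pair, on chromosome 14. S100a4 and S100a6 have 1 gene between them. Chance levels for such pairs were not computed.

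Promoter windows were read from the RefSeq table for GRCm38.p6, 250 bases before to 50 after each start, for 2 motifs on both strands: a forkhead core, TGTTTAC, and the AP-1 site, TGANTCA, which Batf dimers are known to bind. The table held 55 windows for 40 of the 52 genes called lower and 47 windows for 39 of the 56 called higher. The AP-1 letters were in 5.45% of the windows of genes called lower and 6.38% of those called higher, against 6.38% of the 18109 windows of all genes tested. The forkhead letters were in 3.64% and 4.26%, against 2.98%. With 2 or 3 windows behind each share of the called genes, these values are near the background. The 2 forkhead windows of genes called lower both belong to Casp4, overlap and hold the same site. The windows below are shown because they belong to named genes that fell and hold 1 of the motifs, in capitals. Il17rb and Chdh start in opposite directions from the same stretch of chromosome 14, so their windows overlap and the AP-1 letters in them are the same site read from each strand, 104 bases before the start of Il17rb and 6 before that of Chdh. In Gpr15 the AP-1 letters are 199 bases before the start. In Casp4 the forkhead letters are 209 bases before the start of the window shown and 220 before the other start.
Il17rb, chr14:30008847-30009146, minus strand: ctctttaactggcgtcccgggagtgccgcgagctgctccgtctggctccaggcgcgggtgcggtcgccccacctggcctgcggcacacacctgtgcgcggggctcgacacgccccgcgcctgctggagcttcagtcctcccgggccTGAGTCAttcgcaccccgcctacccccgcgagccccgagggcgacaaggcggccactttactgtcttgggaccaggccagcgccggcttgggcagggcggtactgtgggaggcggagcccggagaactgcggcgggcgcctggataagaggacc
Chdh, chr14:30008750-30009049, plus strand: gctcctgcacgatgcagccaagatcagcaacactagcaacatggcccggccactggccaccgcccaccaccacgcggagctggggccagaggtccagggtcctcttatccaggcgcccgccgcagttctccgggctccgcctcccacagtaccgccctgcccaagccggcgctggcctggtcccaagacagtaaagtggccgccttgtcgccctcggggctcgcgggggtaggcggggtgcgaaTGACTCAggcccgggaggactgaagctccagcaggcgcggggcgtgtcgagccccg
Gpr15, chr16:58718823-58719122, minus strand: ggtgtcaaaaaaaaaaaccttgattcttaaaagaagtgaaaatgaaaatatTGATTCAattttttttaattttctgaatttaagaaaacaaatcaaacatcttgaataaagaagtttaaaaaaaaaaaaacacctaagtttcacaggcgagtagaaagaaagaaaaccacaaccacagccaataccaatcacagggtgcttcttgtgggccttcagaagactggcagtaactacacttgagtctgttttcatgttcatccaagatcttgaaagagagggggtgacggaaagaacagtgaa
Casp4, chr9:5308599-5308898, plus strand: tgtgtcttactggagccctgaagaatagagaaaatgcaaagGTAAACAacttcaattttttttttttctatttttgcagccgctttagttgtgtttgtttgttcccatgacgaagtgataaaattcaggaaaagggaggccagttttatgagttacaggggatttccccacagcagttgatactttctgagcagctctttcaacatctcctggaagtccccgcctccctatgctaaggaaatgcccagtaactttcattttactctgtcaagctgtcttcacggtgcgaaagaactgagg
These letters come from the reference genome and not from the B6;129 mice, and a match is not evidence that a factor binds there.

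Leaving out 1 array changed how many genes were called. Against 56 higher and 52 lower with all arrays, limma called 39 and 26 without A384T array 1. The counts were 27 and 34 when A384T array 2 was left out and 26 and 28 when A384T array 3 was. Leaving out WT GFP array 2 gave 24 and 27, and leaving out WT hCD2 array 4 gave 28 and 31. Without WT GFP array 1 (43 and 46) or WT hCD2 array 3 (51 and 46) the counts moved less. In all 7 fits 44 of the 108 genes were called, 21 higher and 23 lower, and these hold 23 of the 30 genes named as largest changes. Of the 54 called genes with several probe sets, 45 had all their probe sets in the same direction and 12 had a further probe set called. With probe sets averaged 44 of the 54 were called, and the difference of 32 moved by over 1.5 times.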

How the data were processed

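RNA of 18 samples was measured on Affymetrix mouse arrays with 45101 probe sets. Per the submitters' processing notes the authors used RMA, and what they deposited is on the log2 scale, a base assumed because RMA uses it. The software and its version are not given in the sources used here. In the deposited table the 2 Tconv values of every probe set sum to 0 (at most 1.0e-06), a shift that leaves differences unchanged but removes levels. Of the probe sets, 34945 were assigned to 1 gene by the platform annotation, 932 to several and 9160 to none, and 64 controls were left out. Each of 18193 genes was read from its most variable probe set over the 18 arrays (9010 genes had several).

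Group means of all arrays were fitted with limma 3.58.1 in R 4.3.3 (11 residual and 3.3 prior degrees of freedom). Named genes are the 15 largest called increases and decreases without overlap, called list members, Foxp3 and Batf; further called genes were chosen after their values were seen. The comparison, the 36 gene lists and the tests were chosen with earlier results of these data known. On simulated data with independent arrays and 18193 genes, this comparison recovered 30.4%, 82.8%, 98.4% and 100.0% of genes changed by 0.5, 1, 2 and 3, with 4.8% false calls. The real wild-type arrays deviate together in pairs, so these rates may not hold for the real data.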

Additional observations from a re-analysis of the deposited data

Results flagged for a closer look

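Among the 44 named genes, the 4 wild-type arrays held a value far from the other 3 in 2 genes; chance alone would flag about 1 in 20 groups. Tubb2b was at -0.07 on WT hCD2 array 3 and at 0.29 to 0.30 on the others. Fcgr3 was at -0.74 on WT GFP array 2 and at -0.27 to -0.19 on the others.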

How the results depend on the processing

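With 1 value per gene, the 108 called genes kept their direction in every alternative in which they were tested; single probe sets of some went the other way, and 45 of 54 with several had all in 1 direction. Against 56 genes higher and 52 lower over all genes, 25 and 26 were called against WT hCD2 alone, 24 and 25 against WT GFP alone, 16 and 20 in a fit of the 7 arrays in 3 groups, 23 and 22 with wild-type arrays averaged in pairs, 28 and 34 with the random block (correlation 0.61; 28 of the 56 and 32 of the 52), and 31 and 64 with WT GFP cells of A384T mice as control (29 of the 56 and 36 of the 52). The title numbers do not pair A384T arrays with the wild-type arrays (correlations of -0.09, -0.13 and -0.02 for equal numbers 1, 2 and 3); with the replicate block 4 and 7 genes were called. Within A384T mice the replicate block gave 330 and 622 against 31 and 64 without it. Foxp3 reversed, to -0.23 (adjusted p = 1), against WT GFP cells of A384T mice. Fits that left out 1 array gave 24 to 51 higher and 26 to 46 lower in the main comparison, 92 to 128 and 21 to 33 against I363V, 186 to 411 and 63 to 236 against R397W, and 15 to 23 and 24 to 76 within A384T mice; between reporters, and between wild-type cells of the 2 kinds of mice, they gave 0. With probe sets averaged 78 and 74 genes were called, among them 44 of the 54 called genes with several probe sets, of which 32 moved by over 1.5 times. Counts stayed within 1.5 times under median centring, the variance filter, robust eBayes, each probe set by itself and the 7 arrays in 2 groups. Quantile normalization was not run, since centred values have no common distribution. Signal over background cannot be read from centred values.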
